A study of Homo sapiens and Mus musculus with 29 samples.

Results

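Proteases that act outside the cell or at its surface, and the inhibitors that hold them in check, were followed through the RNA of pancreatic cancer cells. The members were 45 human genes chosen by symbol, and 38 of them had a mean of 0.3 RPKM or more over the 21 HPAF-II samples. RPKM scales the reads of a gene by its length and by the depth of the library. In the table of mouse KPC lines, 30 of the 45 orthologs reached 0.3 RPKM. These 38 and 30 genes are read against 19900 human and 16682 mouse genes that passed the same limit. All 45 symbols and all mouse orthologs were found.

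The human line HPAF-II comes from a pancreatic ductal adenocarcinoma, and NSG mice lack working lymphocytes and so accept human cells. Cells were injected into the pancreas of NSG mice, and RNA was taken from 3 control tumors, 3 tumors with FOXA1 overexpression (FOXA1-OE), 4 HNF4G-KO tumors and 5 HNF4G-KO + FOXA1-OE tumors from 4 mice. From the same HNF4G-KO mice came 2 peritoneal metastases, and HNF4G-KO + FOXA1-OE mice gave 4 metastases in 3 mice, of which 1 lay in the spleen. Per the labels, control cells carried Cas-9 and an empty vector (EV), HNF4G-KO cells the knockout and EV, FOXA1-OE cells Cas-9 and FOXA1, and HNF4G-KO + FOXA1-OE cells the knockout and FOXA1. The knockout cells were a pool of CRISPR clones, and both knockout groups derive from it. The mouse KPC libraries were 4 from a line grown out of a primary tumor and 4 from its matched liver metastasis, so their spread is that between libraries of 1 line each.

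The labels were checked on their own genes. HNF4G RNA was higher in every HNF4G-KO tumor (5.72 to 8.42 RPKM) than in every control (2.48 to 3.47 RPKM). An edit of a coding exon need not lower the RNA, so this level does not test the knockout, and HNF4G-KO is used here as the label gives it. FOXA1 was at 6.32 and 8.18 RPKM in 2 FOXA1-OE tumors. In the library labeled FOXA1-OE tumor 3 it was at 0.763 RPKM, inside the range of the controls (0.519 to 0.932 RPKM). HNF4G was at 0.495 RPKM in that library, the lowest of all 21 samples. In HNF4G-KO tumors, whose label names no FOXA1, FOXA1 was at 1.26 to 1.87 RPKM, above every control. Among HNF4G-KO + FOXA1-OE metastases, only metastasis 2 kept a high FOXA1 level (17.9 RPKM), and the other 3 were between 0.535 and 1.56 RPKM. Human samples held 33.1 to 69.5 M reads and KPC libraries 30.03 to 44.3 M. The sum of RPKM over all genes was highest in HNF4G-KO + FOXA1-OE tumors 4 and 5 and the library labeled FOXA1-OE tumor 3.

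Matrix metalloproteinases (MMPs) are zinc enzymes that cut collagens, other matrix proteins and other secreted factors, and TIMPs bind and block them. ADAMs release the outer part of membrane proteins. Urokinase (PLAU) turns plasminogen into plasmin. Matriptase (ST14), prostasin (PRSS8) and TMPRSS enzymes are trypsin-like serine proteases held at the epithelial surface, where the Kunitz inhibitors SPINT1 and SPINT2 restrain the former pair. Kallikreins are secreted serine proteases, cathepsins work mostly in lysosomes but can be secreted by tumors, and serpins are trap-like inhibitors, of which clade B members stay mostly inside the cell. Many of these genes are known to be made by stromal cells, so the source of a read matters in a tumor grown in a mouse.

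The promoters that RefSeq gives for these genes (GRCh38.p14, 250 bases before to 50 after the start of the gene) differ in letters known from this family. An AP-1 element is the classic switch of inducible MMP genes. TGANTCA, searched on both strands, was found in 7.71% of 35116 promoters of this length, and in those of 5 of the 25 tested members that had an entry, namely MMP7, MMP10, SERPINB5, SERPINB8 and SPINT1. The forkhead letters TGTTTAC, which FOX factors bind, were in 3.42% of promoters and in that of CTSL among members. The HNF4 letters CAAAGTCCA were in 0.384% of promoters and in no member's. TATAAA, read in the direction of transcription, was in 7.33% of promoters and in those of MMP7, MMP10 and SERPINB8. For each motif the share is per promoter, while members are counted per gene, with a hit in any promoter of the gene. SPINT1 had an entry with the AP-1 letters and another without. The motifs do not overlap each other in the stretches below. MMP7 and MMP10 are shown because both carry the AP-1 letters 67 bases before the start, CTSL for its forkhead letters, and KLK6 because its level fell in HNF4G-KO tumors. Capitals mark the motifs, and KLK6 has none of them in the window.
MMP7 (minus strand, chr11:102530698-102530837): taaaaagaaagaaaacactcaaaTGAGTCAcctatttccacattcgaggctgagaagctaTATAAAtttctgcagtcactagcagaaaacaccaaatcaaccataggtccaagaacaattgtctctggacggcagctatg
MMP10 (minus strand, chr11:102780579-102780718): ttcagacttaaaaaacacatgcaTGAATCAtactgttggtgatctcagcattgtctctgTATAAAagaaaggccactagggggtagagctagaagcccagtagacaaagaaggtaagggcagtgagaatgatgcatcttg
CTSL (plus strand, chr9:87725937-87726003): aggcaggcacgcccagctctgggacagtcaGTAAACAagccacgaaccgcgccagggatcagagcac
KLK6 (minus strand, chr19:50969542-50969691): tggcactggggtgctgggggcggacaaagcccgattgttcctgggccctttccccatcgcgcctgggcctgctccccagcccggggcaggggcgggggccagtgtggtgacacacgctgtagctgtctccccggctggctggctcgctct

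The first question was how these genes differed between HNF4G-KO and control primary tumors. Effects of the pool of clones and of the knockout cannot be told apart in this design. In HNF4G-KO against control tumors, 6 of 38 members changed, 5 higher and 1 lower, which is 15.8% of them. Over all genes, limma called 9.33% at an adjusted p under 0.05, 4.96% higher and 4.37% lower, against which the share of members is to be read. The 5 that rose were MMP28, SERPINB5, CTSS, TMPRSS4 and SERPINB8, and KLK6 fell. At an unadjusted p under 0.05 there were 13 members, 8 higher and 5 lower, against 27.6% of all genes. The members' median log2 fold change was -0.11 and that of all genes -0.0022.

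MMP28 (epilysin, 17:35756249-35795707 on GRCh38) is a secreted MMP of keratinocytes and other epithelia. It was at 2.35, 1.16 and 0.390 RPKM in control tumors and at 18.8, 11.7, 12.6 and 13.7 RPKM in HNF4G-KO tumors. Every knockout tumor was far above every control. HNF4G-KO tumors averaged 14.2 ± 3.18 RPKM (SD, n = 4), controls averaged 1.30 ± 0.988 RPKM (SD, n = 3), and the log2 fold change was 2.79 (SE 0.33, adjusted p = 0.000734, limma). The call held in each of the 7 fits that left out a tumor.

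SERPINB5 (maspin, a clade B serpin known as an epithelial protein) was at 27.6, 21.2 and 15.4 RPKM in controls and at 60.2, 63.6, 63.7 and 57.9 RPKM in HNF4G-KO tumors. The groups did not overlap, and the 4 knockout tumors were close together. The log2 fold change was 1.51 (SE 0.32, adjusted p = 0.0149, limma). SERPINB8, a clade B inhibitor of furin-like proteases, went from 3.27, 2.50 and 2.40 RPKM to 4.35, 5.87, 5.54 and 4.39 RPKM, a log2 fold change of 0.70 (SE 0.17, adjusted p = 0.0223, limma). The remaining tested clade B serpin, SERPINB1, an inhibitor of neutrophil proteases, was not called (log2 fold change -0.10, 95% interval -0.47 to 0.27). Their relatives SERPINB2 and SERPINB3 were under the limit, with at most 0.107 and 0.513 RPKM, and SERPINB3 has a near-identical neighbor with which reads can be shared.

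CTSS (cathepsin S) is a cysteine protease best known from antigen-presenting cells. It was at 5.94, 3.87 and 5.14 RPKM in controls and at 17.6, 12.7, 12.3 and 14.3 RPKM in HNF4G-KO tumors, with no overlap (log2 fold change 1.35, SE 0.31, adjusted p = 0.0210, limma). The summed level of myeloid cell markers was 19.0 to 23.0 RPKM in controls and 6.79 to 8.56 RPKM in HNF4G-KO tumors, 6 of 13 markers had a mean of 0.3 RPKM or more, and most of the sum was CD14, with a median of 13.2 RPKM in controls and 4.41 RPKM in HNF4G-KO tumors. The macrophage marker CD68 had a median of 0.121 RPKM in controls and 0.294 RPKM in HNF4G-KO tumors, and the leukocyte marker PTPRC one of 0.0994 and 0.108 RPKM. All other myeloid markers had lower medians in HNF4G-KO tumors than in controls. CSF1R had 2.42 RPKM in controls and 0.928 RPKM in HNF4G-KO tumors, C1QB 2.09 and 0.566 RPKM, and AIF1 1.52 and 0.307 RPKM. The part of myeloid cells in the CTSS level was not tested.

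TMPRSS4, a membrane-anchored serine protease of epithelial tumors, was at 42.4, 34.0 and 48.7 RPKM in controls and at 81.0, 106, 102 and 76.5 RPKM in HNF4G-KO tumors. All 4 knockout tumors were above all 3 controls (log2 fold change 1.12, SE 0.23, adjusted p = 0.0138, limma). Of the other enzymes at the cell surface, TMPRSS2 had a log2 fold change of 0.50 (adjusted p = 0.269), ST14 of 0.39 (adjusted p = 0.229) and PRSS8 was between 35.5 and 42.3 RPKM in HNF4G-KO and 39.2 and 55.0 RPKM in control tumors. The inhibitors SPINT1 and SPINT2 were lower without passing the test by limma, with log2 fold changes of -0.76 (adjusted p = 0.115) and -0.40 (adjusted p = 0.273). PRSS8 was not higher in HNF4G-KO tumors, so enzymes and inhibitors did not split by direction.

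KLK6 is a secreted kallikrein and one of the most abundant members. It was at 317, 409 and 356 RPKM in controls and at 177, 162, 184 and 195 RPKM in HNF4G-KO tumors. Every knockout tumor was below every control (95% interval of the log2 fold change -1.44 to -0.56, adjusted p = 0.0127, limma). Its neighbors on chromosome 19, KLK10 and KLK11, had log2 fold changes of -0.32 and 0.10 and were not called.

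For each of these 6 members the two-sided exact permutation test gave p = 0.0286, the smallest that 4 against 3 mice allow. Members that limma did not call reached it too, such as TIMP1, PLAU, CTSD, ADAM9 and ST14. The 6 were chosen by limma on the same values, so this p adds no independent support. The counts depend on single tumors. Without control tumor 2, MMP28 alone was called, and without control tumor 3 there were 3 members. The share of all genes called in these fits is not given, so the loss cannot be read as particular to the members. CTSS and SERPINB8 were each lost in 4 of 7 fits, also without HNF4G-KO tumors 1 or 4 for CTSS and 2 or 3 for SERPINB8. In control tumor 2 the acinar cell markers summed to 434 RPKM, against at most 34.8 RPKM in the other 20 samples, and their part in the result was not tested. In a fit of only these 2 groups, 18 of 38 members were called, 10 higher and 8 lower, beside 30.9% of all genes, and all 6 remained. The 12 that joined were ADAM8, ADAM9, ADAM10, ADAM17 and TMPRSS2 among the higher, and TIMP1, SPINT1, PLAU, CTSD, CTSZ, SERPINE2 and MMP11 among the lower.

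**Figure D1:**
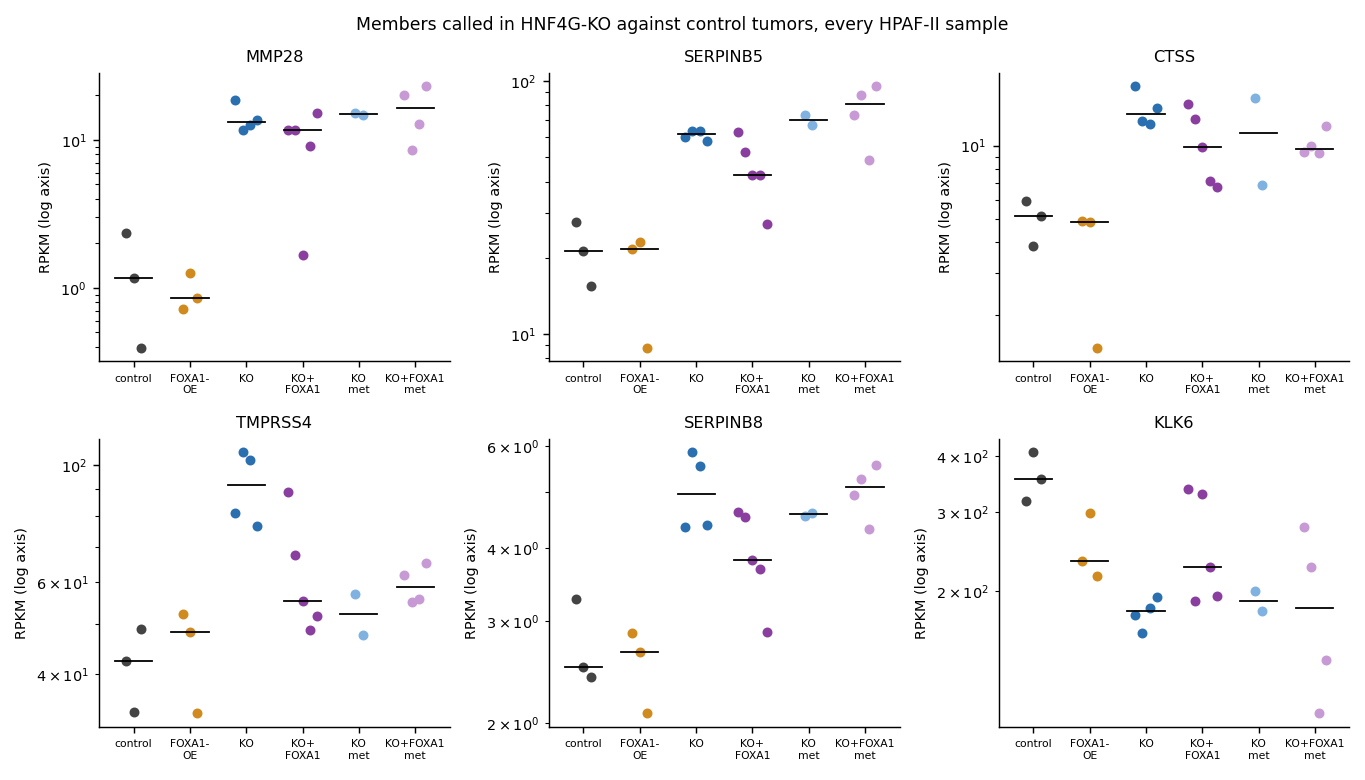
RPKM (log axis) of MMP28, SERPINB5, CTSS, TMPRSS4, SERPINB8 and KLK6 in every HPAF-II sample, each point a tumor or metastasis and the bar the median of its group (KO stands for HNF4G-KO, KO+FOXA1 for HNF4G-KO + FOXA1-OE). MMP28 is at 2.35 RPKM or less in all 6 tumors labeled control or FOXA1-OE and above 8 RPKM in every knockout sample but one tumor at 1.67 RPKM.

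The remaining members tested in this comparison did not pass the threshold. MMP7 (matrilysin), the highest MMP, was at 223, 189 and 695 RPKM in controls and at 137, 191, 221 and 190 RPKM in HNF4G-KO tumors, and control tumor 3 stood far above all other tumors of both groups. MMP1, the interstitial collagenase, was at 52.9, 32.8 and 12.3 RPKM in controls and at 56.6, 41.2, 29.0 and 27.6 RPKM in HNF4G-KO tumors, with wide overlap. MMP14, the membrane-bound activator of MMP2, was not called (log2 fold change -0.18, 95% interval -0.73 to 0.37). TIMP1, the main soluble MMP inhibitor, was at 256, 334 and 308 RPKM in controls and at 181, 127, 137 and 181 RPKM in HNF4G-KO tumors. These groups did not overlap, yet the log2 fold change of -0.94 had an adjusted p of 0.147 by limma, in a fit that shares its spread with the library labeled FOXA1-OE tumor 3, where TIMP1 was at 840 RPKM. ADAM8, ADAM10 and ADAM17, the sheddases of many growth factors and cytokines, had log2 fold changes of 0.56, 0.58 and 0.54 and adjusted p-values by limma of 0.106, 0.107 and 0.131.

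MMP2, MMP9 and MMP11 are typical products of stroma. MMP2 was at 11.4, 8.87 and 2.99 RPKM in controls and at 4.41, 4.91, 4.24 and 4.56 RPKM in HNF4G-KO tumors. The summed level of 16 fibroblast markers was 236, 225 and 72.3 RPKM in controls and 69.3 to 89.7 RPKM in HNF4G-KO tumors. Control tumor 3 thus lay inside the knockout range. Of the 16 markers, 12 had a mean of 0.3 RPKM or more. Median LUM, POSTN and THY1 were higher in HNF4G-KO tumors (0.608, 0.387 and 0.0574 RPKM) than in controls (0.265, 0.354 and 0.0445 RPKM). The other markers had lower medians there. Collagen I (COL1A1) was the highest of the 16, while the fibroblast marker DCN had a median of 0.145 RPKM in controls and was at most 0.278 RPKM in any sample. The part of the host in the levels of these MMPs was not tested. In bulk RNA, fewer cells of a type and less RNA per cell cannot be told apart. MMP9, with a mean of 0.235 RPKM, was the member just outside the limit, and MMP11, with 0.383 RPKM, the one just inside.

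The second question was how tumors labeled FOXA1-OE differed from controls. In FOXA1-OE against control tumors, limma called 0 of 38 members and 0% of all 19900 genes. At an unadjusted p under 0.05 there were 1021 genes (5.13%) and 1 member, KLK6, at 234, 299 and 217 RPKM against 317, 409 and 356 RPKM. The KLK6 groups did not overlap, and the exact permutation test gave p = 0.1, the smallest for 3 against 3. MMP28 stayed at 0.717, 1.26 and 0.859 RPKM in FOXA1-OE tumors, a log2 difference of -0.16 to controls with a 95% interval of -0.92 to 0.61. Leaving out the library labeled FOXA1-OE tumor 3 gave 0 called members as well.

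In that library TIMP1 (840 RPKM), CTSD (637 RPKM) and SPINT1 (201 RPKM) were the highest, and ADAM9 (19.3 RPKM), MMP14 (27.1 RPKM) and CTSS (1.47 RPKM) were the lowest of all 21 samples. The other FOXA1-OE tumors were at 352 and 263 RPKM for TIMP1 and 354 and 259 RPKM for CTSD, the aspartic protease cathepsin D. HNF4G-KO + FOXA1-OE tumor 5 was second to it for TIMP1 and CTSD and second lowest for ADAM9, with TIMP1 at 559 RPKM, CTSD at 548 RPKM and ADAM9 at 26.7 RPKM. Both libraries were among the 3 of highest summed RPKM.

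With both changes present, HNF4G-KO + FOXA1-OE tumors were set against each single change. Against HNF4G-KO tumors limma called 0 of 38 members and 0.106% of all genes. At an unadjusted p under 0.05 there were 9 members, 5 higher and 4 lower, against 18.0% of all genes. MMP7 was among them, at 771, 235, 846, 312 and 206 RPKM in the 5 tumors against 137 to 221 RPKM with HNF4G-KO alone (log2 fold change 1.08, adjusted p = 0.244, limma), and tumors 1 and 3 stood far above the rest. TIMP1 was another, with a log2 fold change of 1.02 (adjusted p = 0.231, limma), and its range of 153 to 559 RPKM overlapped that of HNF4G-KO tumors. KLK6 was at 337, 190, 329, 226 and 196 RPKM, against 162 to 195 RPKM with HNF4G-KO alone. The 4 that were lower were TMPRSS4, ADAM9, ADAM10 and ADAM17, with log2 fold changes of -0.57, -0.89, -0.56 and -0.55.

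Against FOXA1-OE tumors, which sets the knockout against tumors labeled FOXA1-OE, of which the library labeled FOXA1-OE tumor 3 had FOXA1 at the control level, limma called 5 of 38 members, 3 higher and 2 lower. Over all genes 6.77% were called, 2.96% higher and 3.8% lower. MMP28 was at 11.6, 11.7, 1.67, 9.17 and 15.2 RPKM in HNF4G-KO + FOXA1-OE tumors, where tumors 2 and 3 came from 1 mouse and were averaged. Tumor 3 was the only one near the FOXA1-OE level. The log2 fold change was 2.44 (SE 0.33, adjusted p = 0.00134, limma), and it held in each of the 7 fits that left out a mouse. SERPINB5 was at 62.7, 52.3, 42.5, 42.4 and 27.1 RPKM against 21.6, 23.1 and 8.78 RPKM in FOXA1-OE tumors (log2 fold change 1.33, adjusted p = 0.0244, limma). CTSS was at 14.8, 12.9, 9.84, 7.18 and 6.75 RPKM against 4.90, 4.83 and 1.47 RPKM (log2 fold change 1.26, adjusted p = 0.0289, limma). Neither of these groups overlapped.

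The pair that fell was CTSZ and SPINT2. CTSZ (cathepsin Z, a carboxypeptidase of lysosomes) was at 245, 225, 266, 202 and 191 RPKM against 372, 562 and 292 RPKM in FOXA1-OE tumors (log2 fold change -0.84, adjusted p = 0.0455, limma). It was also called against control tumors at 434, 357 and 524 RPKM (log2 fold change -0.98, adjusted p = 0.0347, limma), where MMP28 rose (2.28, adjusted p = 0.00388) and no other member was called. In a fit of only these 2 groups neither was called, with an adjusted p of 0.0662 for MMP28 and 0.113 for CTSZ by limma, and without the RPKM filter CTSZ was not called. These 2 of 38 stand beside 3.7% of all genes, 1.79% higher and 1.9% lower. SPINT2, an inhibitor of matriptase-type enzymes, was at 103, 43.99, 60.7, 63.1 and 59.1 RPKM against 144, 118 and 98.6 RPKM in FOXA1-OE tumors (log2 fold change -0.82, adjusted p = 0.0449, limma), and tumor 1 overlapped. In a fit of only HNF4G-KO + FOXA1-OE and FOXA1-OE tumors MMP28 alone was called (adjusted p = 0.04496, limma), as also without the RPKM filter, so SERPINB5, CTSS, CTSZ and SPINT2 lost their calls in both. Leaving out any 1 of the 7 mice left 2 or 3 members called, and the share of all genes in those fits is not given. The calls of SERPINB5 and CTSS were each lost in 3 of 7 fits, those without the library labeled FOXA1-OE tumor 3, without HNF4G-KO + FOXA1-OE tumor 1 and without the mouse of tumors 2 and 3. The CTSZ calls were lost in 6 of 7 fits that left out a mouse, in each of its 2 comparisons, and that of SPINT2 in 5 of 7. The 2 comparisons share the HNF4G-KO + FOXA1-OE tumors.

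Whether the difference with FOXA1-OE was itself different with and without the HNF4G-KO label was tested as an interaction. Limma called 0 of 38 members and 0.0352% of all genes. At an unadjusted p under 0.05 there were 4 members against 9.02% of all genes, KLK6 (log2 difference 0.998, adjusted p = 0.359), KLK10 (0.97), ADAM15 (0.78) and CTSB (-0.58). For MMP28 the difference was -0.35 with a 95% interval of -1.36 to 0.66.

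**Figure D2:**
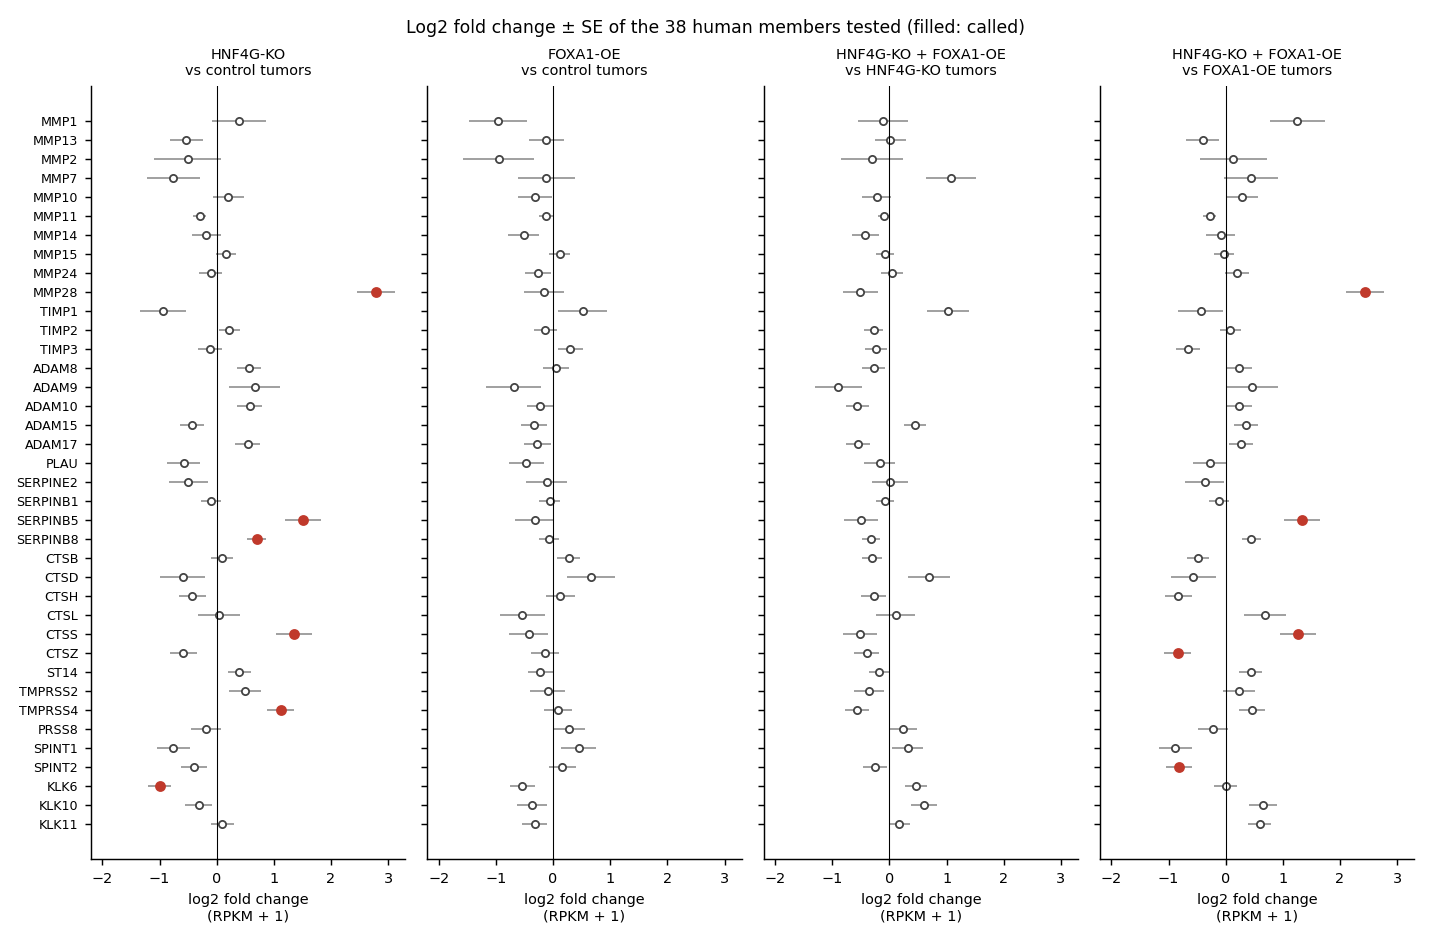
Log2 fold change of RPKM + 1 with its SE for the 38 tested human members in 4 comparisons of primary tumors, with filled points for members called by limma. MMP28 has the largest change in both comparisons of the knockout, at 2.79 and 2.44, and no point is filled in the 2 comparisons of FOXA1 overexpression.

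The wider set of 132 other proteases and inhibitors had 65 genes over the limit. In HNF4G-KO against control tumors 14 were called, 4 higher and 10 lower, beside the 9.33% of all genes (4.96% higher and 4.37% lower). Of largest change was SERPINA1, the liver-type inhibitor of neutrophil elastase, which fell by 2.70 on the log2 scale (adjusted p = 0.000279, limma), followed by the cysteine protease inhibitor CST1 (-2.33), the aspartic protease CTSE, which rose (1.503), the serpin SERPINA5 (-1.21) and the cystatin CST6 (-1.18). In HNF4G-KO + FOXA1-OE against control tumors 9 were called, 1 higher and 8 lower, beside 3.7% of all genes, led by SERPINA1 (-2.41), CST1 (-2.34), SERPINA5 (-1.86), PRSS23 (-1.23) and SERPINA4 (-1.09). Against FOXA1-OE tumors 8 were called, 1 higher and 7 lower, beside 6.77% of all genes, led by SERPINA1 (-2.36), CST1 (-2.25), SERPINA5 (-1.86), CTSF (-1.21) and TMPRSS11E (-1.10). In the other comparisons 0 were called.

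**Figure D3:**
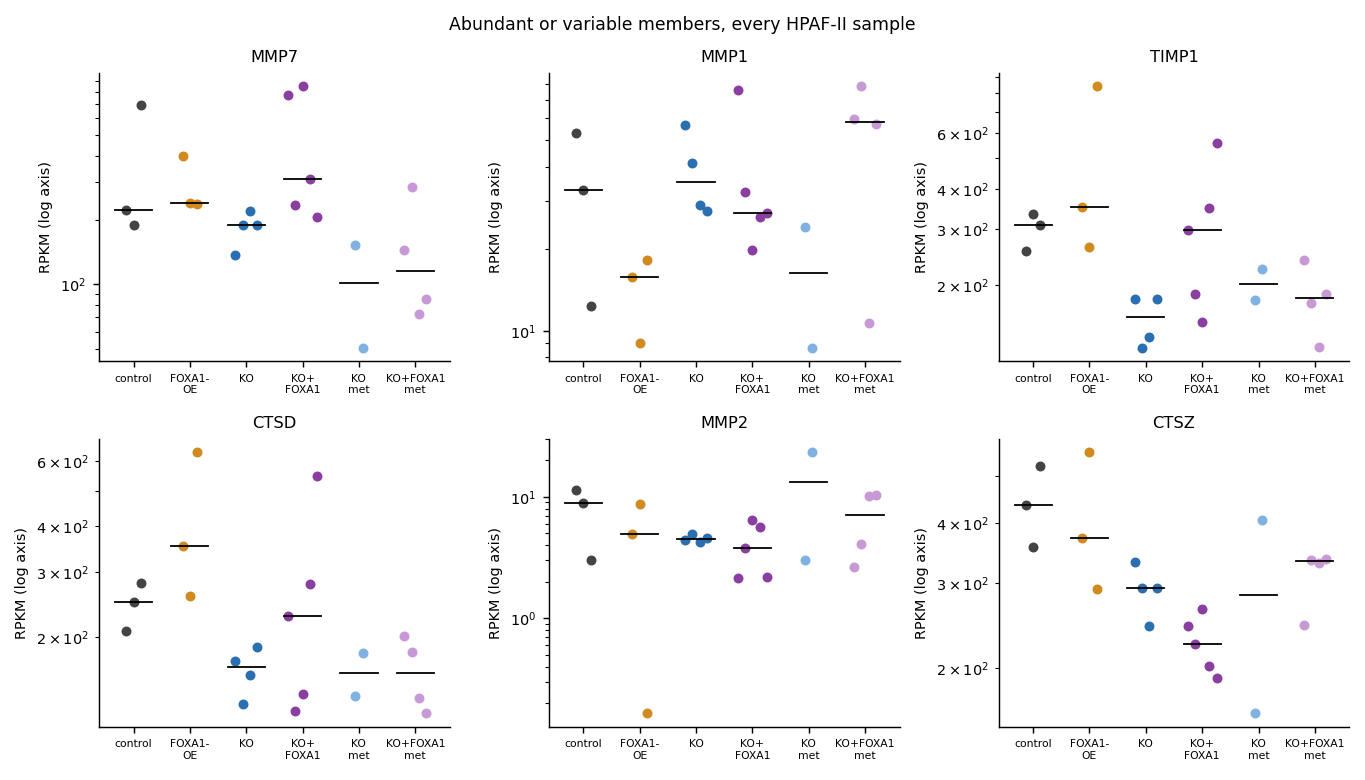
RPKM (log axis) of MMP7, MMP1, TIMP1, CTSD, MMP2 and CTSZ in every HPAF-II sample, each point a tumor or metastasis and the bar the median of its group. MMP7 ranges from 50.2 to 846 RPKM and MMP2 from 0.164 to 23.6 RPKM, with the highest MMP2 in a metastasis.

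Metastases were compared with primary tumors of the same cells. With HNF4G-KO, limma called 0 of 38 members and 0.0302% of all genes when mice were not paired. At an unadjusted p under 0.05 there were 11 members, 1 higher and 10 lower, against 20.9% of all genes. Both metastases came from mice whose tumor was also sequenced. With the mouse as a block, 4 members were called lower, beside 4.11% of all genes. ADAM9, a membrane sheddase, was at 61.8 and 63.8 RPKM in the metastases and at 111, 130, 115 and 113 RPKM in the tumors (log2 fold change -0.90, adjusted p = 0.0318 with the block, limma). SERPINE2 (protease nexin 1, an inhibitor of thrombin and urokinase) was at 4.96 and 3.26 RPKM against 7.10 to 9.78 RPKM (-0.98, adjusted p = 0.0377 with the block). TMPRSS2 was at 13.4 and 8.67 RPKM against 18.6 to 23.0 RPKM (-0.93, adjusted p = 0.0404 with the block). TMPRSS4 was at 56.9 and 47.4 RPKM against 76.5 to 106 RPKM (-0.79, adjusted p = 0.0440 with the block).

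Metastasis 2 of HNF4G-KO stood apart from metastasis 1. It had the highest fibroblast marker sum of all samples, 495 RPKM against 91.2 RPKM in metastasis 1, and the highest MMP2 (23.6 RPKM against 3.01 RPKM) and MMP9 (1.48 RPKM against 0.107 RPKM). Its MMP7 (50.2 RPKM), MMP1 (8.65 RPKM) and MMP10 (0.403 RPKM, another inducible MMP) were the lowest of all 21 samples, while metastasis 1 was at 153, 24.0 and 1.67 RPKM. The part of the host cells in these values was not tested. When metastasis 1 was left out, 10 members were called, beside 9.29% of all genes, and when metastasis 2 was left out 1 was called, ADAM9, beside 3.18%. Each of these fits has 1 metastasis, which is assumed to vary like the tumors, so the counts show only how far the result rests on the sample kept. With 2 metastases against 4 tumors the exact permutation test cannot go below p = 0.0667.

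With HNF4G-KO + FOXA1-OE, limma called 0 of 38 members and 0% of all genes, with or without the mouse as a block and without the spleen metastasis. At an unadjusted p under 0.05 there were 961 genes (4.83%) and 3 members. MMP7 was at 145, 286, 72.6 and 85.6 RPKM in the metastases and at 206 to 846 RPKM in the tumors (log2 fold change -1.82, SE 0.50, adjusted p = 0.831, limma). All 3 metastases whose mouse also gave a tumor were below that tumor. Metastases 1 and 2 are from the same mouse and were both set against tumor 1. TIMP3, the TIMP bound to matrix, was at 11.1, 15.3, 4.90 and 7.96 RPKM against 10.52 to 19.0 RPKM (-0.71), and CTSZ was at 246, 336, 330 and 336 RPKM against 191 to 266 RPKM (0.53). For the members that rose with the knockout in tumors, the metastases had MMP28 at 20.2, 8.60, 12.8 and 23.1 RPKM and SERPINB5 at 73.6, 88.1, 48.8 and 95.2 RPKM. SERPINB8 was there at 4.94, 5.26, 4.32 and 5.56 RPKM, CTSS at 9.38, 9.96, 9.34 and 12.0 RPKM and TMPRSS4 at 61.8, 55.0, 55.6 and 65.3 RPKM. In HNF4G-KO metastases MMP28 was at 15.2 and 14.8 RPKM, SERPINB5 at 73.3 and 67.2 RPKM, SERPINB8 at 4.55 and 4.60 RPKM and CTSS at 15.7 and 6.90 RPKM, while TMPRSS4 was below the tumors, as given above. No control metastasis was compared.

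Levels were read across members per length of gene. Over the 21 samples the highest means were those of CTSZ (317 RPKM), MMP7 (280 RPKM), TIMP1 (269 RPKM), KLK6 (236 RPKM), CTSD (235 RPKM) and ST14 (165 RPKM). CTSB, a cysteine protease often secreted by tumors, had a mean of 113 RPKM, SERPINB1 of 95.0 RPKM, SPINT2 of 87.6 RPKM, SPINT1 of 84.8 RPKM and ADAM9 of 77.4 RPKM. Urokinase (PLAU) was at 23.2 to 96.9 RPKM, whereas tissue plasminogen activator (PLAT) did not exceed 0.490 RPKM. The other members under the limit were ADAM12, ADAMTS1 and HPN, with means of 0.0623, 0.0914 and 0.0495 RPKM. Among the 15 primary tumors MMP15, a membrane-type MMP, ranged from 12.9 to 25.4 RPKM, TIMP2 from 10.1 to 19.1 RPKM and SERPINB1 from 67.2 to 106 RPKM. Over all samples the collagenase MMP13 ranged from 0.272 to 2.75 RPKM and MMP24 from 0.244 to 1.60 RPKM, near the limit of 0.3 RPKM. The sheddase ADAM15 ranged from 12.5 to 36.9 RPKM, and the cathepsins CTSH and CTSL ranged from 13.2 to 46.3 RPKM and from 5.01 to 30.2 RPKM. CTSL was highest in HNF4G-KO + FOXA1-OE tumors 1 and 3, at 29.1 and 30.2 RPKM.

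The mouse KPC lines come from a genetic model of pancreatic cancer. Mmp2, Mmp7, Klk6, Klk11, Ctss and Serpinb3a were at 0 RPKM in all 8 libraries. Timp2 had the highest mean (148 RPKM), before Ctsd (135 RPKM), Adam9 (94.0 RPKM), Ctsz (91.5 RPKM) and Ctsl (79.9 RPKM). Of the membrane-anchored enzymes Tmprss2 (33.03 RPKM) was the highest, while St14 had 0.270 RPKM. Adam12 (0.294 RPKM) was the ortholog just outside the limit and Tmprss4 (0.353 RPKM) the one just inside.

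In the liver metastasis line against the tumor line, limma called 0 of 30 orthologs and 0% of all 16682 genes, with 213 genes and no ortholog at an unadjusted p under 0.05. The replicates did not act as one set. Serpinb8 was at 0.0322 and 0.0152 RPKM in tumor line libraries 1 and 2 and at 3.88 and 3.37 RPKM in libraries 3 and 4. In the metastasis line it was at 3.10 and 3.08 RPKM in libraries 1 and 2 and at 0 in libraries 3 and 4. So tumor libraries 1 and 2 resembled metastasis libraries 3 and 4, and the reverse. Mmp28 showed the same pattern, with 1.99, 1.91, 7.48 and 6.35 RPKM in the tumor line and 6.40, 6.56, 3.48 and 2.92 RPKM in the metastasis line. Prss8 had it in the other direction, with 1.498, 1.90, 0.462 and 0.342 RPKM in the tumor line and 0.172, 0.133, 3.14 and 1.80 RPKM in the liver line.

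Taking the first 2 replicates on their own, 13 of 30 orthologs were called, 7 higher and 6 lower, beside 16.7% of all genes. With replicates 3 and 4 alone, 1 was called, Serpinb8, beside 0.366% of all genes, and in the opposite direction. The difference between the 2 pairs was called by limma for 10 orthologs, beside 16.3% of all genes, and 25 of 30 orthologs and 12228 of 16682 genes had opposite signs in the pairs. These fits have 2 libraries per line, and the pairs were chosen with earlier results of these data known. The names of the lines follow the labels, and whether the labels of 1 pair of libraries are crossed was not tested. If they are, the values given for the lines in that pair change places, so no direction between the lines is drawn.

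**Figure D4:**
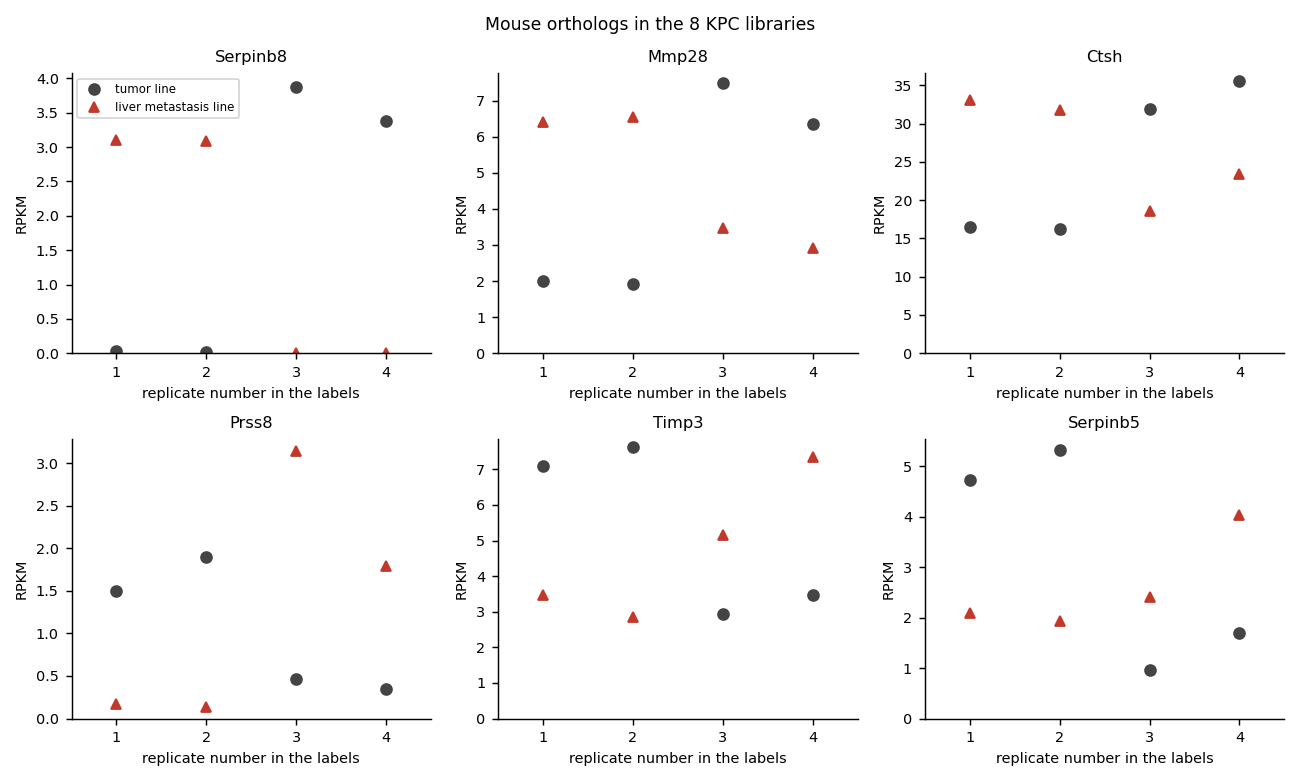
RPKM of Serpinb8, Mmp28, Ctsh, Prss8, Timp3 and Serpinb5 in the 8 KPC libraries by the replicate number of the labels, with circles for the tumor line and triangles for the liver metastasis line. In each panel the order of the lines in replicates 1 and 2 is turned around in replicates 3 and 4, as for Serpinb8 at 3.10 and 3.08 RPKM against 0 in the metastasis line.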

How the data were processed

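RNA of 29 samples was analyzed, 21 from HPAF-II tumors and metastases and 8 from KPC lines. The authors aligned reads with STAR 2.6.1a and used featureCounts 2.0.4 per the submitters' processing notes, and the RPKM values they deposited come as 1 table per species. From the deposited RPKM, log2(RPKM + 1) was computed, a scale that understates changes of low genes. Genes whose RPKM averaged 0.3 or more over a table were tested with limma 3.58.1 in R 4.3.3 (eBayes with a trend, Benjamini-Hochberg adjustment over all genes tested, adjusted p under 0.05), after checks on simulated data. The 4 groups of primary tumors entered 1 fit, and each set of metastases was fitted with its tumors. Samples of 1 kind from 1 mouse were averaged. Single members had a two-sided exact permutation test. Depth was worked out from the RPKM steps that correspond to 1 read, and at least 99.7% of low values were whole reads within 0.02.

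The members and gene lists were chosen with earlier results of these data known. All 45 members are accounted for, full statistics are given for those called, and of the wider set the 5 of largest change are named. A pairing of tumor and metastasis comes from the animal, with correlations of deviations of 0.209, 0.249, 0.296 and -0.066 for the 4 pairs. Alternatives were another pseudocount or filter, a median shift, fits of 2 groups, tumors of 1 mouse kept apart, blocks, a fibroblast covariate and fits that drop a mouse or library. From the mouse file, 12 columns of no sample used here were left out. The paper names GRCh37 and the labels GRCh38 for human reads, and coordinates given are those of GRCh38 in GENCODE release 44. No count tool was run. Tables and figures were made in Python 3.11.15 with matplotlib 3.10.9.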

Additional observations from a re-analysis of the deposited data

Results flagged for a closer look

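A sample far from the others of its group was searched among the tested members in groups of 4 or 5 samples, where chance marks about 1 in 20 groups. There were 5 such values in 174 tests. Members share samples and some samples share a mouse, so the tests are not independent. The count was therefore not weighed against chance. MMP28 was at 1.67 RPKM in HNF4G-KO + FOXA1-OE tumor 3, below the other 4 tumors at 9.17 to 15.2 RPKM. In the metastases of that group, MMP1 was at 10.7 RPKM in metastasis 3 against 57.4 to 78.7 RPKM, MMP24, a membrane-type MMP, was at 1.49 RPKM in metastasis 3 against 0.619 to 0.720 RPKM, and CTSZ was at 246 RPKM in the spleen metastasis against 330 to 336 RPKM. In the KPC tumor line, Mmp11 was at 17.8 RPKM in replicate 3 against 5.72 to 6.79 RPKM.

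The difference between the lines was itself different between KPC replicates 1 and 2 and replicates 3 and 4 for 10 orthologs by limma's interaction term, in a test added after the data were seen. On the log2 scale, replicates 3 and 4 minus replicates 1 and 2, it was -4.21 for Serpinb8 (adjusted p = 7.12e-05), -2.26 for Mmp28, -1.615 for Ctsh, -1.33 for Timp2 and -1.14 for Plau. It was 2.50 for Prss8, 1.85 for Serpinb5, 1.78 for Timp3, 1.62 for Tmprss2 and 1.275 for Adam9. The cause was not tested.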

How the results depend on the processing

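No called member reversed its direction, and of 208 values of single members under alternatives 156 stayed past the threshold and 52 did not. Of 144 counts, 117 stayed within 1.5 times the reported one, 19 were lower and 8 higher. A count of 0 that stayed 0 is among the 117, and most comparisons had 0 members called. The 117 therefore does not measure how stable the counts above 0 are. All 19 lower counts fall in the comparisons with a called member. In HNF4G-KO against control tumors (6 members), a fit of only these groups gave 18, beside 30.9% of all genes. The fibroblast covariate gave 10 there, and leaving out a tumor gave 1 to 6. In HNF4G-KO + FOXA1-OE against control tumors (2 members), no RPKM filter gave 1, a fit of only these groups 0, the replicate block 1, and leaving out a mouse 1 to 2. Against FOXA1-OE tumors (5 members), no RPKM filter gave 1, a fit of only these groups 1, the replicate block 3, and leaving out a mouse 2 to 3. In metastases against tumors of HNF4G-KO (0 members), the fibroblast covariate gave 1, the mouse as a replicate block 4, and leaving out a sample 0 to 10. In the KPC lines (0 members), replicates 1 and 2 gave 13 and replicates 3 and 4 gave 1. A count given without the share of all genes from the same fit cannot tell a change of the members from one of all genes. The causes were not tested.

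Correlations of same-numbered tumors ran from -0.255 to 0.601, and those of KPC replicates from -0.345 to 0.188. Differently numbered samples were not correlated, so these values cannot show whether the numbers pair the samples. The tumor number as a replicate block changed no other count by over 1.5 times. Leaving out HNF4G-KO + FOXA1-OE tumor 3, chosen after seeing the data, kept all calls of MMP28. Groups of 3 or 4 mice, and 2 HNF4G-KO metastases, limit every comparison, and RPKM without read numbers kept the test on a log scale.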
